A study of Mus musculus with 48 samples.

Results

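Acute phase proteins are blood proteins whose output from the liver changes within hours of infection, injury or another inflammatory signal. Cytokines such as interleukin-6 and interleukin-1 reach the hepatocyte and act through STAT3, C/EBP and NF-kB factors on the promoters of these genes. In the mouse the serum amyloid A and P proteins, haptoglobin and the acid glycoproteins are among the strongly inducible ones, whereas C-reactive protein, the main human example, responds weakly. The 10 genes described are Saa2, Saa3, Orm1, Orm2, Lcn2, Hp, Hpx, Apcs, Lbp and Crp, a fixed list of secreted acute phase proteins. They are 10 of the 13542 genes tested, each read by its single probe set with 1 gene symbol, and all 10 passed the filter on low values.

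Expression was measured on 48 Affymetrix arrays of the median liver lobe of F1 mice, male or female, aged 3 weeks. Their sires had eaten a low-protein diet (LPD) or a control diet (CD) at 3 to 12 weeks of age. The offspring were labelled ATF7+/-, ATF7+/+ or wild-type. ATF7 is a stress-responsive transcription factor. This gives 6 groups of 8 arrays, ATF7+/- LPD and CD (named ATF7HET in the plots), ATF7+/+ LPD and CD (ATF7WT) and wild-type LPD and CD (WT). The sources used here do not say how ATF7+/+ and wild-type animals differ, nor which arrays share a sire, a litter or a sex, so the p-values measure the spread between these samples. The mean level of 3 Y-linked genes ran from 6.31 in ATF7+/- CD to 7.40 in ATF7+/+ CD livers by group. The main fit had no term for sex. In a control-diet ATF7+/+ pair and a control-diet wild-type pair of arrays the values differed far less than in other pairs of 1 group. Each such pair was counted as 1 sample, which left 46 samples, 7 in these 2 groups and 8 in the others. The arrays also fell into a set A of 18 and a set B of 30, with 3 and 5 arrays of every group; the labels do not name such sets. Levels are log2 expression values as the authors deposited them, and a level of 1 gene is not set against that of another.

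The mean of the targeted gene was lower in ATF7+/- than in the other labels on both of its probe sets. The probe set not used in the fit had 7.72 ± 0.37 in ATF7+/- LPD and 7.72 ± 0.26 in ATF7+/- CD livers, against 8.61 ± 0.14 and 8.72 ± 0.27 in ATF7+/+ and 8.31 ± 0.29 and 8.59 ± 0.13 in wild-type LPD and CD livers (SD). On the probe set used in the fit, ATF7+/- minus ATF7+/+ was -0.34 ± 0.08 in LPD livers (adjusted p = 0.301) and -0.40 ± 0.08 in CD livers (adjusted p = 0.0788). ATF7+/- minus wild-type was smaller, -0.14 ± 0.08 in LPD livers, which did not pass, and -0.26 ± 0.08 in CD livers (limma adjusted p = 0.0956). Hepatocyte markers were high in every group, with a mean level over 9 markers between 12.76 and 12.96 in the single samples. In bulk liver, fewer cells of a type and less RNA per cell cannot be told apart.

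The promoters of the 3 most variable members and of the least variable one are shown because the members differ so much in their spread between animals. Each is the 250 bases before the gene's start, 5′ to 3′, from RefSeq on GRCm38.p6, with words that match the C/EBP pattern TTNNGNAA on either strand in capitals. Saa2 is at chr7:46751583-46751832 on the plus strand, Orm2 at chr4:63362199-63362448 on the plus strand, Lcn2 at chr2:32387740-32387989 on the minus strand and Hpx at chr7:105600117-105600366 on the minus strand.
Saa2: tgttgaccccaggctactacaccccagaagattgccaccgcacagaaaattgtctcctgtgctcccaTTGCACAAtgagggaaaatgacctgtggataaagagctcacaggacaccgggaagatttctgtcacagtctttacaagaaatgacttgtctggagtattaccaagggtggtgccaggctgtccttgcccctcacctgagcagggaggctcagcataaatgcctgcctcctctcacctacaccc
Orm2: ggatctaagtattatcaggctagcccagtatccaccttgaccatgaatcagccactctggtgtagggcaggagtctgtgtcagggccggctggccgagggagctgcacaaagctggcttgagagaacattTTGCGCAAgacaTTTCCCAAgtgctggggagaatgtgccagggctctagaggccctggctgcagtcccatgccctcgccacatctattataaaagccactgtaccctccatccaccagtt
Lcn2: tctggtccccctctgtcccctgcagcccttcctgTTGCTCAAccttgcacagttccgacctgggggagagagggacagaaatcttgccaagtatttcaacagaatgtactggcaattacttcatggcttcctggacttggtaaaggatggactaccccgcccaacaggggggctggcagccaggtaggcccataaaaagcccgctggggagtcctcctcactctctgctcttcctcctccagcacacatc
Hpx: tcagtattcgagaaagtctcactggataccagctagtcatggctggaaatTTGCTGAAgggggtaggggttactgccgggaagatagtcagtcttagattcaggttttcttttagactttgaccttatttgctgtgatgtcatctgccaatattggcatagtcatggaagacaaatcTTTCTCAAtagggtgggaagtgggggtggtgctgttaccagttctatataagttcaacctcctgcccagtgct

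Of the 10 members 7 had such a window. The C/EBP pattern was in 6 of them, against 36.8% of 32526 mouse promoter windows of the same length. The STAT pattern TTCNNNGAA was in 1, Apcs, against 7.04% of all windows, and the NF-kB consensus in 0, against 0.36%. The C/EBP word lay 183 bases before the start of Saa2, 120 and 108 bases before that of Orm2, 216 before that of Lcn2, and 200 and 73 before that of Hpx. Variable and steady members both carried it. A match describes letters only.

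Across the animals the list split by spread. Saa2, which encodes an apolipoprotein of high-density lipoprotein that rises steeply in inflammation, had an SD within groups of 1.10, and Lcn2, which encodes lipocalin 2, a binder of bacterial siderophores, had 1.11. Orm2 had 0.97 and Orm1 0.68; both encode alpha-1-acid glycoproteins, carriers of drugs and lipids in plasma. The median SD over all 13542 genes was 0.20, and these 4 genes stood at percentiles 99.8, 99.8, 99.7 and 99.0. At the other end, Hpx, which encodes the haem-binding hemopexin, had an SD of 0.09, at percentile 0.377, and Hp, which encodes the haemoglobin-binding haptoglobin, had 0.13, at percentile 8.65. Apcs (0.38), Lbp (0.34), Crp (0.28) and Saa3 (0.26) lay between, at percentiles 90.1, 86.4, 78.1 and 73.4. Without 1 library, wild-type CD replicate 8, the SDs of Saa2, Orm2 and Orm1 were 0.82, 0.78 and 0.61, still at percentiles 99.5, 99.4 and 98.4.

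**Figure D1:**
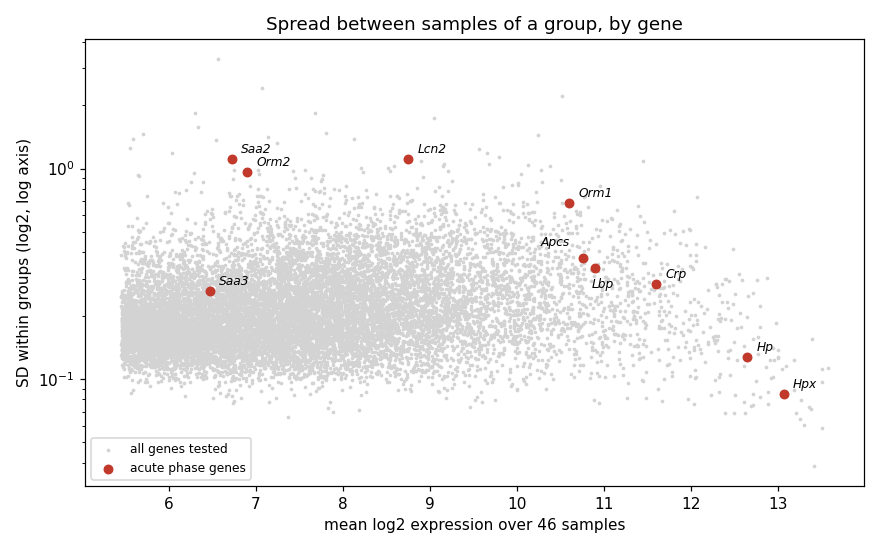
SD within the 6 groups (log2, log axis) against the mean log2 level over 46 samples, with 1 grey point for each of 13542 genes and the 10 acute phase genes in red. Lcn2, Saa2, Orm2 and Orm1 lie near the upper edge, while Hp and Hpx lie near the lower edge.

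Levels of 4 members differed between the array sets. Within groups, set B exceeded set A by 0.46 ± 0.04 in Crp (SE, limma adjusted p = 2.28e-12), by 0.43 ± 0.07 in Lbp (adjusted p = 2.53e-06), by 0.34 ± 0.10 in Apcs (adjusted p = 0.00201) and by 0.84 ± 0.29 in Lcn2 (adjusted p = 0.0104). The other 6 members did not pass, and of all genes 68% did. Most of the within-group spread of Crp went with the set: within group and set its SD was 0.15, at percentile 40.8. Values with the set as a block or within each set stand beside many of the results below, though not beside every change of call or sign.

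**Figure D2:**
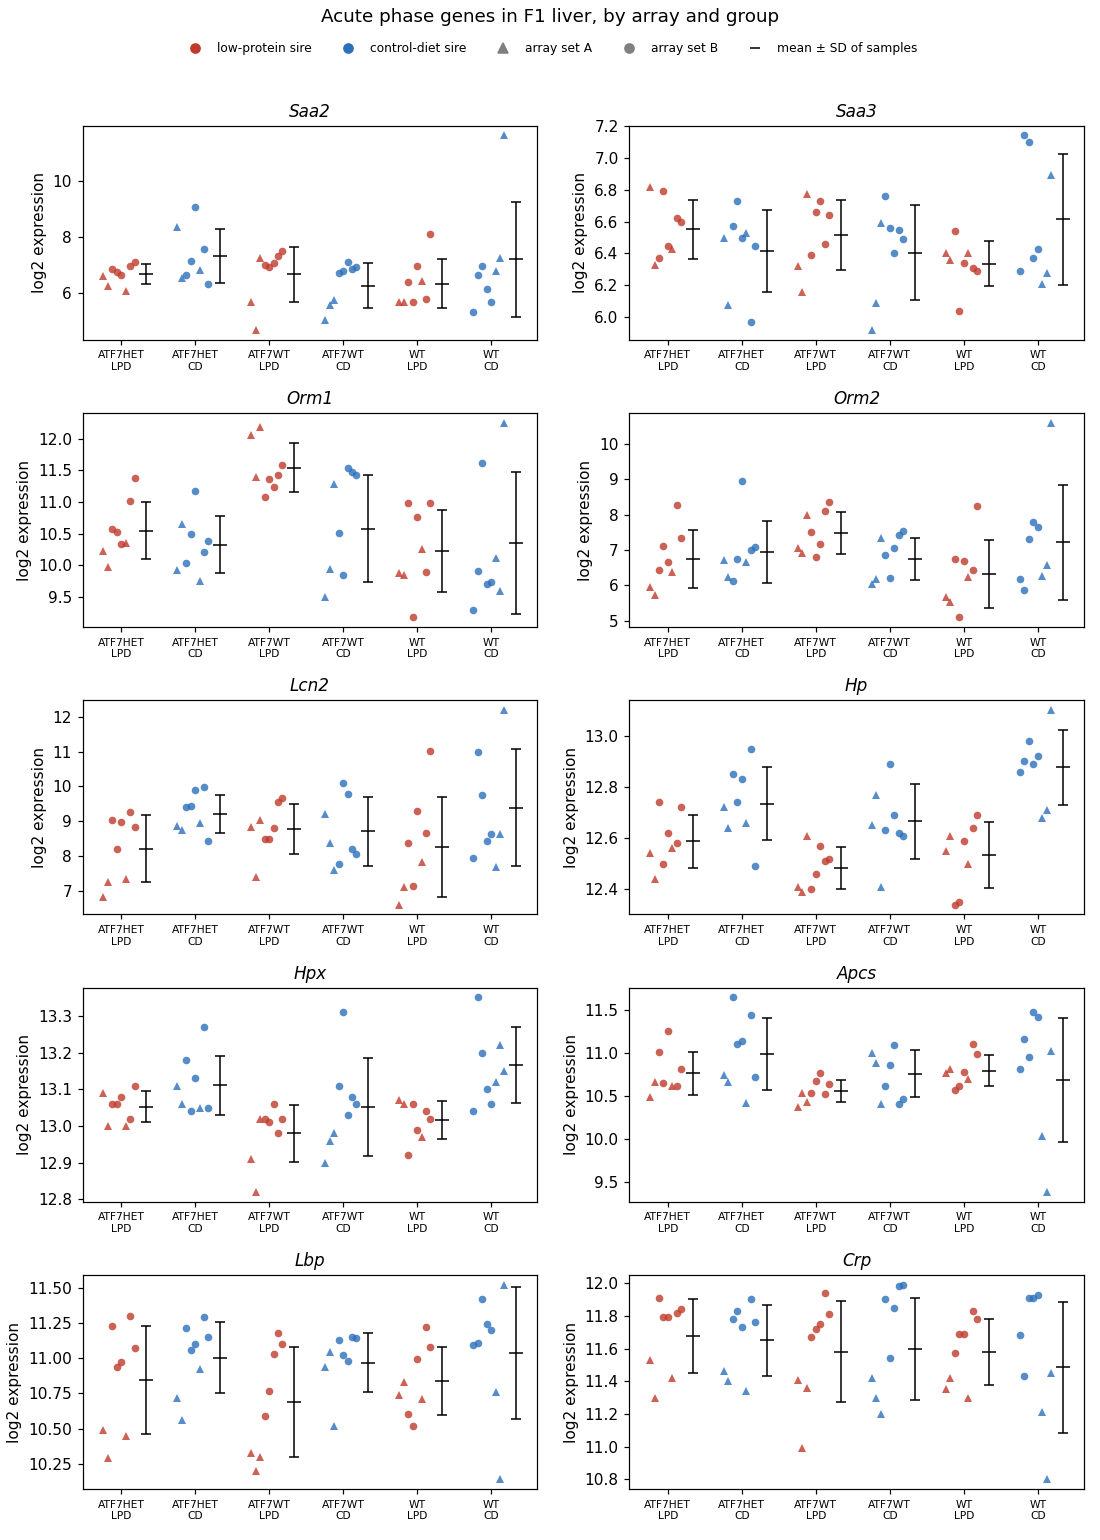
Log2 expression of each gene on every array, by group, with red for low-protein and blue for control-diet sires, triangles for array set A and circles for set B; bars are the mean ± SD of samples (n = 8, or 7 in ATF7+/+ CD and wild-type CD, where 2 arrays count as 1). In Hp each red group lies low beside its blue partner, and 1 wild-type CD array tops Saa2, Orm1, Orm2, Lcn2, Hp and Lbp.

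That array, wild-type CD replicate 8 (set A), stood apart in the acute phase genes. Its level of Saa2 was 11.62, against a median of 6.75 and a highest value of 9.06 in the other samples, a 29.2-fold difference from the median. Orm2 was 10.60 against a median of 6.73 (14.6-fold), Lcn2 12.19 against 8.74 (10.9-fold) and Orm1 12.25 against 10.49 (3.39-fold). Lbp, whose product presents bacterial lipopolysaccharide to its receptor, was 11.52 against 10.98, and Hp was 13.10 against 12.62. For these 6 members it was the highest of 46 samples, while it ranked 3 for Saa3, 7 for Hpx, 10 for Apcs and 30 for Crp.

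Among 19938 genes with a probe set, Saa1, Saa2, Orm3, Orm2 and Lcn2 held ranks 2 to 6 by their difference in this animal, behind the female-specific Xist. Its mean over 3 Y-linked genes was 3.88, the lowest of its group. Saa1 and Orm3 are near copies of Saa2 and of Orm1 and Orm2, so their probe sets can read each other's transcripts; both were under the filter on low values. Other inducible genes were also highest here, including Lrg1, a secreted glycoprotein, at 12.43 against 10.68, Socs3, the feedback inhibitor of STAT3 signalling, at 8.16 against 6.92, Nfkbiz, an NF-kB cofactor, at 8.43 against 6.82, and the chemokine Cxcl1, at 9.18 against 6.68. Saa4, a constitutive member of the Saa family, was 11.03 against 10.83 and ranked 14. The mean of 5 granulocyte markers was 6.18, the highest of all samples but barely above the 6.16 of an ATF7+/- CD sample. Of the 14 listed, 9 were under the filter, S100a8 and Ltf among them. The mean of 12 Kupffer cell markers was 8.93, within the range of the other samples. The part of these cells in the result was not tested. In all, 553 genes differed over 2-fold from the other samples' median in this animal, and 598 in ATF7+/+ CD replicate 2.

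**Figure D3:**
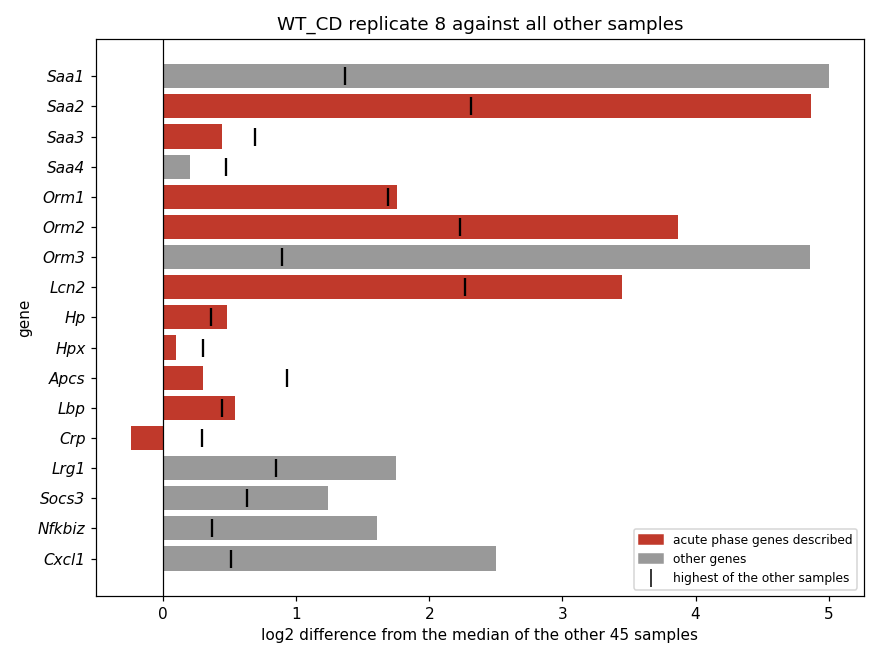
Log2 difference of wild-type CD replicate 8 from the median of the other 45 samples, by gene, with red bars for the 10 described genes and grey bars for other genes; ticks mark the highest of the other samples. Saa1, Saa2, Orm2, Orm3 and Lcn2 exceed every other sample by a wide margin, while Saa3, Saa4, Hpx, Apcs and Crp do not exceed the highest of the others.

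The paternal diet was compared within each genotype label, low protein minus control, and Hp was the member that moved. In wild-type offspring Hp had a lowest, median and highest level of 12.34, 12.57 and 12.69 in LPD livers, against 12.68, 12.90 and 13.10 in CD livers. All 8 LPD samples lay below 6 of the 7 CD samples, and the groups overlapped by 0.01. Hp fell by 0.34 ± 0.07 on the log2 scale, to 78.9% of its CD level (SE, limma adjusted p = 0.00194). It was 1 of 10 members that passed, against 3.6% of all genes and 0.812% that passed downward. The fall was -0.39 in set B alone (adjusted p = 0.00793, with 4.72% of all genes passing) and -0.28 in set A alone, where it did not pass (adjusted p = 0.1). Without replicate 8 it was -0.31 (adjusted p = 0.0104), with 1.62% of all genes passing.

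The same gene was lower with low-protein sires in the other labels, though it did not pass there. ATF7+/- livers had 12.44, 12.57 and 12.74 with LPD sires, against 12.49, 12.73 and 12.95 with CD sires, a difference of -0.15 ± 0.07 (adjusted p = 1). ATF7+/+ livers had 12.39, 12.49 and 12.61 with LPD sires, against 12.41, 12.65 and 12.89 with CD sires, a difference of -0.18 ± 0.07 (adjusted p = 0.821). Both pairs of groups overlapped. Averaged over the 3 labels, a comparison added after these values were seen, Hp fell by 0.22 ± 0.04, to 85.6% (adjusted p = 0.00125). In that comparison 1 of 10 members passed, against 0.805% of all genes and 0.118% downward; in set A alone Hp did not pass (-0.19, adjusted p = 0.0632).

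In order of group means Hp ran from 12.48 ± 0.08 in ATF7+/+ LPD, 12.53 ± 0.13 in wild-type LPD and 12.59 ± 0.10 in ATF7+/- LPD to 12.67 ± 0.15 in ATF7+/+ CD, 12.74 ± 0.14 in ATF7+/- CD and 12.88 ± 0.15 in wild-type CD (SD). All 3 LPD groups stood below all 3 CD groups, and no gap between neighbours exceeded the SD of either. The size of the diet difference was not shown to depend on the label: ATF7+/- minus wild-type was 0.20 ± 0.10 (adjusted p = 0.528) and ATF7+/+ minus wild-type 0.16 ± 0.10 (adjusted p = 0.847).

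Hpx, which disposes of the haem that haptoglobin's partner haemoglobin releases, had small differences of the same sign. In wild-type livers it had 12.92, 13.03 and 13.07 with LPD sires, against 13.04, 13.15 and 13.35 with CD sires, a difference of -0.15 ± 0.05 (adjusted p = 0.0934). It passed with the array set as a block (-0.15, adjusted p = 0.0328), a fit in which 9.26% of all genes passed, but not with that block and without replicate 8 (adjusted p = 0.0625). The differences were -0.06 ± 0.05 in ATF7+/- and -0.07 ± 0.05 in ATF7+/+ livers (adjusted p = 1 in both).

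Lcn2, Saa2 and Orm2 had the widest errors of the members. Lcn2 had 6.61, 8.12 and 11.01 in wild-type LPD livers, against 7.68, 8.63 and 12.19 in wild-type CD livers, and the groups overlapped over most of their range. Its difference was -1.13 ± 0.55 (adjusted p = 0.297), and -0.67 ± 0.52 without replicate 8. In ATF7+/- livers it was -0.999 ± 0.53 (adjusted p = 1), and in ATF7+/+ livers 0.07 ± 0.55 (adjusted p = 1). Saa2 had 5.65, 6.08 and 8.11 in wild-type LPD livers, against 5.30, 6.77 and 11.62 in wild-type CD livers. Its difference of -0.87 ± 0.55 (adjusted p = 0.474) was -0.14 ± 0.42 without replicate 8. Orm2 likewise went with that animal, at -0.89 ± 0.48 with it (adjusted p = 0.37) and -0.33 ± 0.40 without it. In set A alone, which holds replicate 8, Saa2 (-2.63, adjusted p = 0.049) and Lcn2 (-2.31, adjusted p = 0.045) passed, 2 of 10 members against 15.6% of all genes. In set B alone Saa2 had the opposite sign, at 0.38 (adjusted p = 0.676), and Lcn2 had -0.41 (adjusted p = 0.759).

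In the ATF7 labels Saa2 had 6.05, 6.70 and 7.11 in ATF7+/- LPD livers, against 6.31, 6.96 and 9.06 in ATF7+/- CD livers, a difference of -0.65 ± 0.53 (adjusted p = 1). In ATF7+/+ livers its difference was 0.41 ± 0.55 (adjusted p = 1), the opposite sign. Orm2 had -0.21 ± 0.46 in ATF7+/- and 0.75 ± 0.48 in ATF7+/+ livers (adjusted p = 1 in both). The change of the diet difference between ATF7+/+ and wild-type offspring was 1.29 ± 0.77 in Saa2 (adjusted p = 0.846) and 1.64 ± 0.68 in Orm2 (adjusted p = 0.543), and it did not pass in either gene. Without replicate 8 it was 0.55 in Saa2 and 1.08 in Orm2.

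The remaining members gave small values in wild-type offspring. Saa3, an amyloid A made largely by macrophages and fat in the mouse, had 6.04, 6.35 and 6.54 in LPD livers, against 6.21, 6.40 and 7.14 in CD livers. Its difference was -0.28 ± 0.13 (adjusted p = 0.281), and 3 CD samples lay above every LPD sample. Lbp had 10.52, 10.79 and 11.22 in LPD livers, against 10.14, 11.11 and 11.52 in CD livers, a difference of -0.20 ± 0.17 (adjusted p = 0.636). The CD group held both the highest and the lowest sample. Without replicate 8 its difference was -0.12. Orm1 had -0.13 ± 0.34 (adjusted p = 0.907); its sign turned without replicate 8 (0.18) and between the sets (-0.66 in A, 0.23 in B).

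The pentraxins are ring-shaped proteins that recognize microbes and dead cells. Apcs, which encodes serum amyloid P, had 10.57, 10.78 and 11.11 in wild-type LPD livers, against 9.38, 10.96 and 11.45 in wild-type CD livers, a difference of 0.11 ± 0.19 (adjusted p = 0.86). Crp had 11.30, 11.63 and 11.83 in LPD livers, against 10.80, 11.45 and 11.92 in CD livers, a difference of 0.09 ± 0.14 that did not pass. In both genes the LPD samples lay within the span of the CD samples, and the sign differed between the sets, 0.62 (A) against -0.28 (B) for Apcs and 0.20 (A) against -0.02 (B) for Crp. Of the 10 differences 8 were negative, with a median of -0.24, against 48.9% negative and a median of 0.00 over all genes; without replicate 8, 7 were negative with a median of -0.14. In ATF7+/- livers 7 were negative with a median of -0.15, and in ATF7+/+ livers 5 with a median of 0.03. None passed in these labels, where 0% and 0.00738% of all genes did. At an unadjusted p under 0.05, 1 member did in ATF7+/- (Hp) and 2 did in ATF7+/+ livers (Hp and Orm1), against 1.31% and 4.59% of all genes.

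**Figure D4:**
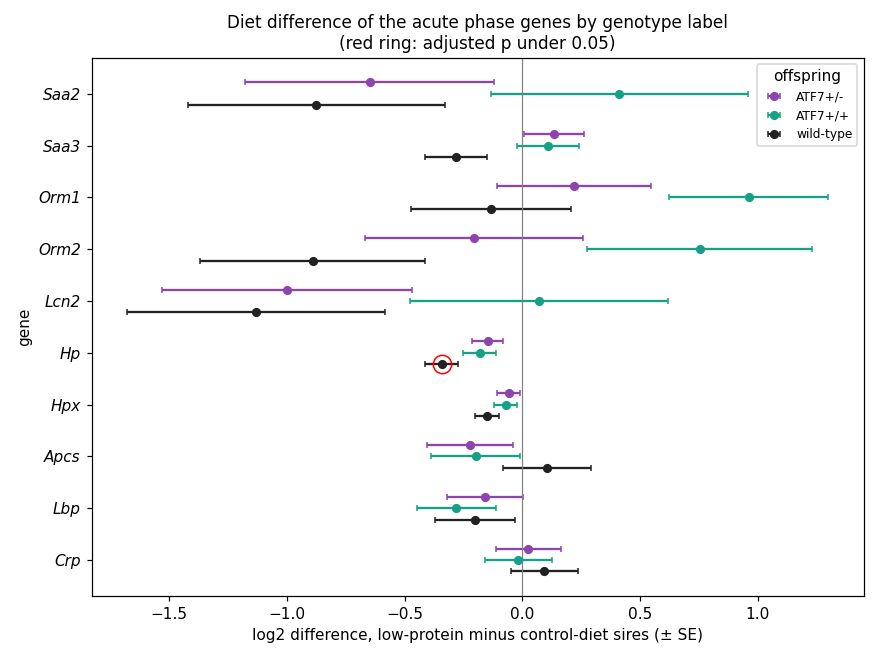
Log2 difference between offspring of low-protein and control-diet sires for each gene (points, ± SE), with purple for ATF7+/-, green for ATF7+/+ and black for wild-type offspring; a red ring marks an adjusted p under the threshold. Hp in wild-type offspring, at -0.34, carries the 1 ring, and the bars of Saa2, Orm2 and Lcn2 are the widest.

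Orm1, an acid glycoprotein gene, had its highest group mean in ATF7+/+ livers of LPD sires, 11.54 ± 0.39 (SD). It had 11.08, 11.42 and 12.18 in ATF7+/+ LPD livers, against 9.50, 10.51 and 11.54 in ATF7+/+ CD livers, a difference of 0.96 ± 0.34 (adjusted p = 0.792). In wild-type LPD livers it had 9.18, 10.08 and 10.99, so that every ATF7+/+ LPD sample lay above every wild-type LPD sample. The share of all genes without overlap between these groups was not counted, so this separation has no background beside it. The difference of ATF7+/+ LPD minus wild-type LPD in Orm1 was 1.32 ± 0.33, or 2.49-fold (adjusted p = 0.2), rank 15 of 13542 genes by p. It did not pass, and 0% of all genes did; it passed in set A alone (1.88, adjusted p = 0.0233), where 12.8% of all genes did, and in a fit of these 2 groups alone (adjusted p = 0.041), where 0.0738% did, but not in set B alone (0.98, adjusted p = 0.561). Orm2, whose probe set can share transcripts with Orm1, had 1.17 ± 0.46 in the same comparison (adjusted p = 0.456), with 6.81, 7.34 and 8.35 in ATF7+/+ LPD livers, against 5.09, 6.33 and 8.24 in wild-type LPD livers. ATF7+/- LPD minus ATF7+/+ LPD was -0.99 ± 0.33 in Orm1 (adjusted p = 0.543). It passed in set A alone, where 8.99% of all genes did.

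No member passed in any other comparison of genotype labels or of diet differences. Among offspring of CD sires the share of all genes that passed was 1.65% for ATF7+/- minus wild-type, 0.347% for ATF7+/+ minus wild-type and 0% for ATF7+/- minus ATF7+/+; among those of LPD sires it was 0% in each of the 3. For the diet difference it was 0.635% for ATF7+/- minus wild-type, 0.0222% for ATF7+/+ minus wild-type and 0% for ATF7+/- minus ATF7+/+. The nearest member was Hp in ATF7+/+ CD minus wild-type CD livers, at -0.21 ± 0.07 (adjusted p = 0.205). At an unadjusted p under 0.05, the diet difference passed in 2 members for ATF7+/- minus wild-type (9.25% of all genes), 3 for ATF7+/+ minus wild-type (7.06%) and 0 for ATF7+/- minus ATF7+/+ (2.81%). For the genotype labels with CD sires the same counts were 1 (12.8%), 2 (10.6%) and 0 (6.75%). With LPD sires they were 0 (2.78%), 2 (8.34%) and 1 (6.71%).

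The members varied together from animal to animal in 2 groupings that were not separate, since Lcn2 was in both. After removing group and array-set means, Pearson's r over 46 samples was 0.76 between Saa2 and Orm2, 0.74 between Orm1 and Orm2 and 0.67 between Saa2 and Lcn2. A second grouping joined Hp with Lbp (0.62), Apcs (0.61) and Lcn2 (0.61), and Lbp with Crp (0.62). Hpx and Orm2 had -0.14. Of 45 pairs 42 were above 0, with a median of 0.30. Without replicate 8 the count was 35 and the median 0.19, Saa2 and Orm2 had 0.54, and Hp and Apcs 0.57. Lcn2 then had 0.53 with Hp, 0.47 with Saa2, 0.34 with Orm2 and 0.27 with Orm1. The median r over pairs of other genes was not computed. The points share arrays and their processing, so these values are descriptions.

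**Figure D5:**
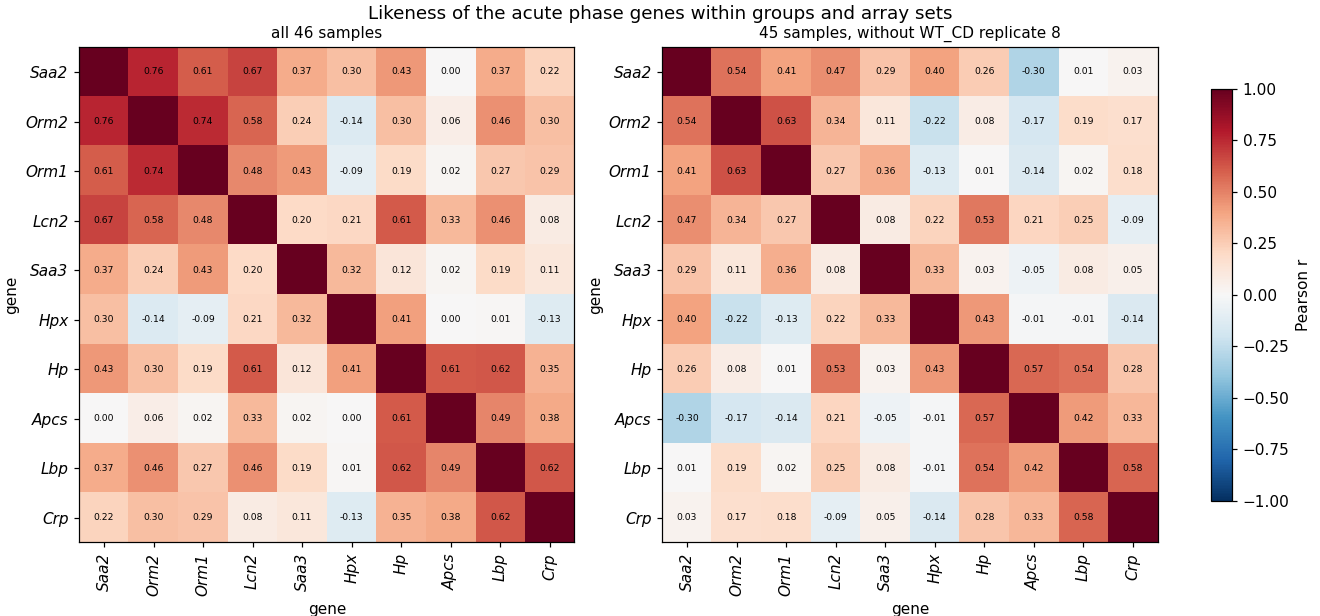
Pearson r between genes after removing group and array-set means, over 46 samples (left) and over 45 without wild-type CD replicate 8 (right), with red for positive and blue for negative r. Saa2, Orm2, Orm1 and Lcn2 form a block at the upper left that is paler on the right, and Hp, Apcs, Lbp and Crp form a block at the lower right.

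Over all genes that passed the filter, the pattern most like that of Hp was Itih3, a heavy chain of the inter-alpha-trypsin inhibitor (r = 0.75, and 0.70 without replicate 8), followed by Steap4 (0.68) and Adam23 (0.64). Itih3 was also first for Apcs (0.74), ahead of Pdia4 and Fgg. Lrg1 led for Saa2 (0.73) and Orm2 (0.74), but had 0.31 and 0.46 there without replicate 8. Wfdc21 led for Orm1 (0.72), Steap4 for Lcn2 (0.73) and Slc37a3 for Saa3 (0.63); without replicate 8 C6, Tmem176b and Zmat3 led for these 3 members, and Wfdc21, Steap4 and Slc37a3 had 0.60, 0.59 and 0.61. Agt, which encodes angiotensinogen, led for Lbp (0.72), and Colec10, a liver collectin, for Crp (0.74). Without replicate 8 Cp led for Apcs and Cyp2c29 for Crp, with Itih3 at 0.71 and Colec10 at 0.72. For Hpx the nearest were Entpd1 (0.85), the macrophage gene Cd68 (0.80) and Ms4a6d (0.80), values that were 0.87, 0.80 and 0.82 without replicate 8.

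The rest of the acute phase pathway was followed in lists chosen with earlier results of these data known. In the wild-type diet comparison 3.6% of all genes passed, 9.26% with the array set as a block and 1.62% without replicate 8. There 1 of 22 measured positive acute phase companions fell and 0 rose, with a median of -0.02. Without replicate 8 the count was 0 fallen and 1 risen, the fibrinogen gene Fga (0.43 ± 0.10, adjusted p = 0.016), with a median of 0.02. With the array set as a block Hamp fell and A1bg and Ifitm3 rose. The gene that fell was Hamp, which encodes the iron hormone hepcidin, at -4.16 ± 1.09 (adjusted p = 0.0213); its adjusted p was 0.0524 without replicate 8 and 0.21 in set B alone. Hamp had 4.18, 8.11 and 11.84 in LPD livers, against 10.94, 12.68 and 12.81 in CD livers. Of 11 negative acute phase genes, those that the liver turns down in inflammation, 0 passed, with Rbp4, a carrier of vitamin A, nearest at -0.10 ± 0.04 (adjusted p = 0.241, and 0.0402 with the set block).

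The signals upstream were read in the same wild-type comparison, in which 3.6% of all genes passed, or 9.26% with the set block. Of 22 cytokines and receptors 15 were measured, with Il6, Tnf, Osm, Lif and Il11 under the filter, and 0 passed. Lifr, a receptor subunit of the interleukin-6 family, had 0.46 ± 0.15 (adjusted p = 0.0723, and 0.0359 with the set block). Of 23 signalling genes and factors 0 passed, with Nfkbiz at -0.46 ± 0.14 (adjusted p = 0.0501), and -0.26 without replicate 8; with the set block Nfkbiz (adjusted p = 0.023) and Bcl3 (adjusted p = 0.00138), both NF-kB cofactors, fell. In ATF7+/+ livers Onecut1, a hepatocyte transcription factor, was the list's 1 gene to rise, at 1.28 ± 0.24 (adjusted p = 0.0493). In that comparison 0.00738% of all genes passed.

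Of 11 glucocorticoid-responsive genes 0 passed, with a median of -0.23 that became -0.05 without replicate 8. Of 13 haemoglobin and haem genes 0 passed, and 1 rose with the set block, the biliverdin reductase gene Blvra. Of 14 clock genes 1 fell, Tef, at -0.77 ± 0.23 (adjusted p = 0.0468, and 0.135 without replicate 8), joined by Per2 with the set block. The shares of all genes that passed in these fits were 3.6% and, with the set block, 9.26%. In the diet comparison of ATF7+/- livers 0% of all genes passed, so none could pass in any list.

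Markers of other liver cells moved in the same comparison as Hp, in which 3.6% of all genes passed, or 9.26% with the array set as a block. Of 10 stellate cell and fibroblast markers 3 rose in wild-type LPD livers, Acta2 (0.67 ± 0.17), Lrat (0.53 ± 0.15) and Reln (0.42 ± 0.12). With the array set as a block 5 rose. Without replicate 8 none passed, while the 10 markers' median difference was 0.25, against 0.29 with it. Their mean level was 8.22, 8.39 and 8.52 at the lowest, median and highest in LPD livers, against 7.65, 8.12 and 8.27 in CD livers, with replicate 8 the lowest. Alas2 rose among 2 measured erythroid markers (0.84 ± 0.22), Cdh5 among 9 endothelial markers (0.34 ± 0.08) and Car3 among 4 adipocyte markers (0.43 ± 0.11); the adipocyte-defining Adipoq and Lep were under the filter. With the set block Oit3 also rose among the endothelial markers. Without replicate 8 neither Cdh5 (adjusted p = 0.0526) nor Car3 (adjusted p = 0.116) passed. Of 12 Kupffer cell, 5 granulocyte, 9 hepatocyte, 4 B and T cell and 3 bile duct markers 0 passed. The part of these cells in the fall of Hp was not tested.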

How the data were processed

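Biotin-labelled cDNA of liver RNA was hybridized to 48 Affymetrix arrays. The authors deposited log2 expression values per probe set, for which the submitters' processing notes name RMA and the Affymetrix Expression Console; versions, and whether all arrays were normalized together, are not given in the sources used here. RMA is known to compress differences of dim probe sets, and probe sets of near-identical genes can read each other's transcripts. Values were used as deposited. Arrays have no read depth, and their number limits the precision.

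There were 35556 probe sets, of which 21789 carried 1 gene symbol, 1621 several and 12146 were not listed. Probe sets with 1 symbol and a mean at or above the 40th percentile (5.46) were kept, with the highest mean per gene, which left 13542 genes. Array pairs of 1 group whose difference on variable genes was under 1.5 times that on stable genes were averaged (ratios 1.33 and 1.45, against 2.25 to 6.33 in other pairs). Array sets A and B were split at the largest step of a principal component computed on 5591 unlisted probe sets. Means of 6 groups were fitted with limma 3.58.1 in R 4.3.3 (with the package data.table, version 1.17.8), with 13 comparisons, two-sided tests and Benjamini-Hochberg adjustment over all genes at 0.05. Figures used matplotlib 3.10.9 in Python 3.11.15.

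The members, lists and tests were chosen with earlier results of these data known. All members were named in full; of other lists, the genes that passed, up to 4, or at most 2 with the smallest p; and the 3 genes most like each member. Same-numbered samples of both diets correlated at 0.18 to 0.74 in 8 ATF7+/- pairs and 0.30 to 0.67 in 7 ATF7+/+ pairs, each pair within 1 array set. Of 7 wild-type pairs, the 3 within a set had 0.07 to 0.50 and the 4 across sets -0.47 to -0.22. These correlations were taken after removing group means only, not array-set means. In the ATF7 labels a shared number and a shared set therefore cannot be told apart. No label says that a number pairs animals. A run was tested on simulated data, with 200 altered genes among 13542. For wild-type offspring it recovered 55 of 67 genes shifted by 0.5 on the log2 scale and 64 of 67 shifted by 1. It also called 16 unchanged genes. The altered genes were drawn at random, with independent noise and no array sets. These shares therefore do not describe members of large spread, such as Saa2, Orm2 and Lcn2. Alternatives covered the filter, normalization, probe set summary, variance prior, array weights, samples, array sets, Y-linked genes and replicate blocks.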

Additional observations from a re-analysis of the deposited data

Results flagged for a closer look

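Within the 6 groups, 60 checks (10 genes by 6 groups) asked whether a highest or lowest sample lay far from the rest of its group. They gave 4 flags, 2 of them in wild-type CD replicate 8. Whether chance gave these flags was not tested. The genes varied together, so the checks are not independent. Wild-type CD replicate 8 was the highest of its group for Saa2, at 11.62 against 7.23 in the next sample, and for Orm2, at 10.60 against 7.73. ATF7+/- CD replicate 5 was the highest of its group for Orm2, at 8.96 against 7.08. ATF7+/+ CD replicate 3 was the lowest of its group for Lbp, at 10.52 against 10.94.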

How the results depend on the processing

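Of 247 checks of the main results under alternatives, 232 left the result as it was. Most of these checks were counts of members passing, many of them 0 in the main fit, and a count cannot reverse. The other checks were of the log2 difference of Hp in wild-type livers and averaged over labels, whose sign never reversed. In the wild-type diet comparison 2 members passed under quantile normalization, with the array set as a block and with the block and Y-linked genes (Hp and Hpx in each), with 3.8%, 9.26% and 10.6% of all genes passing, and 2 in set A alone (Saa2 and Lcn2, with Hp at -0.28; 15.6%). For the diet difference averaged over labels, 2 passed under quantile normalization (0.849%) and the set block (3.21%), 3 with the block and Y-linked genes (Lbp added; 3.99%) and 0 in set A alone (Hp at -0.19; 10.9%). In set A alone 1 passed in ATF7+/+ CD minus wild-type CD livers (Saa2; 19.5%) and 1 in ATF7+/- LPD minus ATF7+/+ LPD livers (Orm1; 8.99%). Orm1 alone (1) passed in ATF7+/+ LPD minus wild-type LPD livers with only those groups fitted (0.0738%), in set A alone (12.8%), and with the set block without wild-type CD replicate 8 (0.229%), an alternative chosen after seeing the data. The causes were not tested. Leaving out each sample in turn left 1 member passing in the wild-type and in the averaged diet comparison, and 0 elsewhere, with Hp from -0.38 to -0.31 and from -0.24 to -0.21. With a replicate block inside each label Hp was -0.35 in wild-type livers (adjusted p = 0.00948) and -0.23 on average (adjusted p = 0.00958), and the replicate block changed no call. Another probe set per gene was not run, since each member has 1. The number of arrays and the large spread of Saa2, Orm2 and Lcn2 limit what their differences can show.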

Other observations

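Wild-type CD replicate 7, also of set A, had the lowest level of the 48 arrays for Apcs (9.38), Lbp (10.14) and Crp (10.80), while its Hp (12.71) and Hpx (13.22) lay within the range of its group. In replicate 8 of the same group the clock output genes Ciart (9.91 against a median of 6.59 in the other samples) and Noct (9.74 against 7.41) and the metal-binding Mt1 (12.57 against 11.04) and Mt2 (13.10 against 11.51) were also the highest of all samples. In ATF7+/+ CD minus wild-type CD livers 2 genes of the lists passed that are linked to these pathways, the interferon-induced Ifitm3 at 0.37 ± 0.08 (adjusted p = 0.0281) and the glucocorticoid target Fkbp5 at -0.68 ± 0.14 (adjusted p = 0.0147); without replicate 8 their adjusted p was 0.0753 and 0.0654.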
